A study of Homo sapiens with 2 samples.

Results

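The hashed samples compared here were 10 of the 15 in a pooled single-cell RNA library of OVCAR5, a human ovarian carcinoma cell line. Of these, 5 looked as if they had seen tumour necrosis factor (TNF) and are called TNF-like, and 5 looked as if they had not and are called unstimulated-like. A hashed sample is the set of cells that carry 1 pair of antibody-borne hashtags (HTO), short barcodes that mark which tube a cell came from. The TNF-like samples were HTO2+HTO6, HTO2+HTO10, HTO3+HTO5, HTO3+HTO8 and HTO4+HTO8, with 320, 147, 49, 630 and 131 cells. The unstimulated-like samples were HTO2+HTO5, HTO2+HTO8, HTO3+HTO7, HTO4+HTO7 and HTO4+HTO10, with 304, 145, 71, 137 and 291 cells. Values below are given in these orders. Together they held 2225 of the 3144 kept cells with a clear hashtag pair, out of 3538 kept cells, and the remaining 5 hashed samples held 919.

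The samples were chosen by the expression of NF-kB target genes, namely NFKBIA, TNFAIP3 and CXCL8, together with the layout of the experiment. No label ties a hashtag to a treatment or to a tumour, so the names of the sets describe expression and not a recorded treatment. Because the choice used the RNA of these cells, every gene of the contrast counts as used, and values are given as descriptions with no test. The 5 samples of a set share a library and were picked as alike, so the spread among them is not an independent error.

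The labels list 15 entries for the pool, 5 per treatment. These were cells left unstimulated in vitro for 6 h, cells given 10 ng/ml TNF alpha for 6 h, and cells given 100 ng/ml interferon gamma with 10 ng/ml TNF alpha for 6 h. All entries shared the OVCAR5 line with a reporter that senses interferon gamma, growth as tumours in NSG-b2m-/- mice, enzymatic digestion, and a sort for cyan fluorescent protein (CFP). Such mice lack T, B and NK cells but keep other host cells, and the matrix lists human genes only, so mouse cells were not measured. The title gives a pool of 5 tumours. The labels do not say whether the reporter line is 1 clone.

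TNF binds its receptor TNFR1, which gathers the adaptors TRADD and RIPK1, TRAF2 and the ubiquitin ligases cIAP1 and cIAP2. The complex activates the IKK kinases, IKK marks the inhibitor IkB-alpha for destruction, and freed NF-kB dimers enter the nucleus. Among the genes they switch on are inhibitors of the pathway itself, such as IkB-alpha (NFKBIA) and A20 (TNFAIP3), and in epithelial tumour cells chemokines, adhesion molecules and survival genes.

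Median depth per cell was close between the sets, while totals differed with the number of cells. Total counts of unique molecular identifiers (UMIs, single RNA molecules) were 582102 to 7324691 per hashed sample, and median UMIs per cell were 10942 to 12405. The median mitochondrial share was 12.2% to 13.8% in the TNF-like and 12.9% to 14.7% in the unstimulated-like samples, and ribosomal protein genes took 13.0% to 15.1% and 13.2% to 14.3% of UMIs. A level is the summed count of a gene per 10000 UMIs of its hashed sample, so that a level of 3 UMIs was 0.00410 in HTO3+HTO8 and 0.0515 in HTO3+HTO5. A lower level in such sums can come from fewer cells with the RNA or from less RNA per cell. Epithelial markers were present, with EPCAM, an adhesion molecule of epithelia, at 2.92 to 4.41 against 3.92 to 4.71, in the TNF-like against the unstimulated-like samples, while PAX8, a regulator of the ovarian and Müllerian lineage, had 311 and 226 UMIs and MUC16, which encodes CA125, had 14 and 16. Of 14 T or NK cell markers, 9 had 0 UMIs, among them CD3D, CD3E, TRAC and NKG7, and all 5 erythroid markers had 0, which allows a level of up to 0.00111 over the 10 samples. The T or NK cell list summed to 0.0515 to 0.1802 in the TNF-like and 0.00295 to 0.0181 in the unstimulated-like samples; CD69, an early activation antigen also known outside T cells, had 196 against 4 UMIs of these. The B cell, fibroblast, myeloid and endothelial lists overlapped between the sets, at 0 to 0.0109 against 0 to 0.00593, 0 to 0.0519 against 0.00295 to 0.0331, 0.326 to 0.624 against 0.359 to 0.629 and 0.447 to 0.584 against 0.440 to 0.617.

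Of 36601 genes, 9444 had a mean level of at least 0.05 over the 10 samples and are said to pass. A gene was called higher or lower when the 5 values of a set did not overlap the other 5 and the medians differed by at least 1.5-fold. By that rule 260 genes (2.75%) were called higher in the TNF-like samples and 166 (1.76%) lower. Counts of list members called below stand against these shares, and the lists were not chosen blind to these data. With median-of-ratios scaling in place of total UMIs the calls were 311 higher and 123 lower. The higher side reached further, with 56 genes at 4-fold or more and 17 at 10-fold or more, whereas 44 genes were lower by at least 2-fold and the lowest ratio was 0.278. The median ratio was 2.21 for genes called higher, 0.576 for genes called lower and 0.952 for all genes that passed. Genes called higher took 2.80% to 3.58% of UMIs in the TNF-like samples and 1.204% to 1.34% in the unstimulated-like samples.

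**Figure D1:**
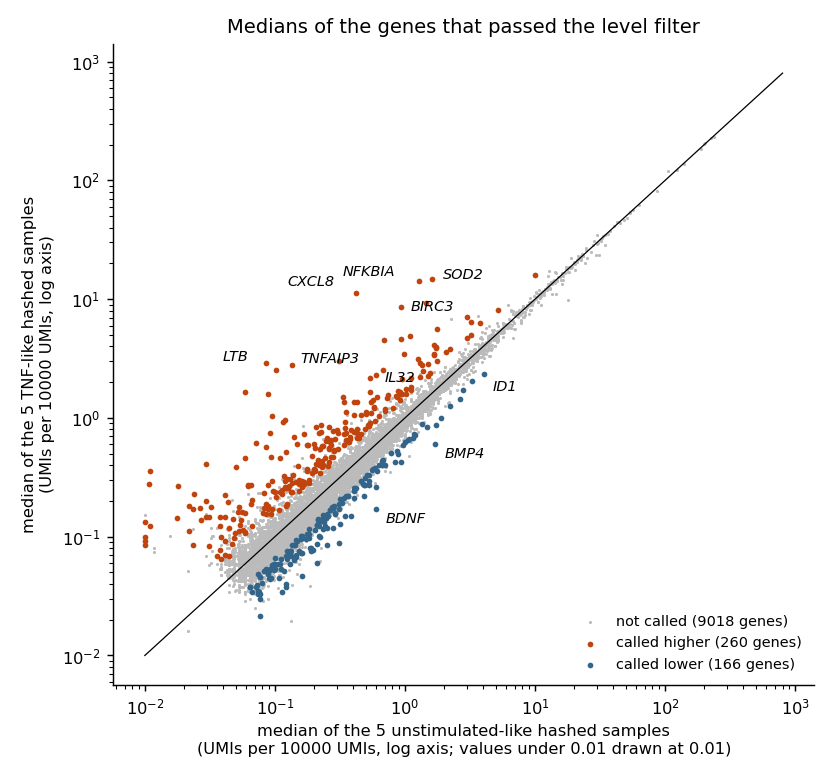
Median level of each of the 9444 genes that passed, in UMIs per 10000 UMIs on log axes, in the 5 unstimulated-like samples (x) and the 5 TNF-like samples (y), with the line of equal levels. The 260 genes called higher (orange) spread farther from the line than the 166 called lower (blue), and CXCL8 lies at 11.3 against 0.421.

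The genes that chose the samples are given first, as a description; in GENCODE 29 on GRCh38 they span chr14:35401511-35404749 (NFKBIA), chr6:137867188-137883312 (TNFAIP3) and chr4:73740506-73743716 (CXCL8). NFKBIA stood at 14.2, 13.6, 10.5, 14.9 and 15.9 in the TNF-like and 1.28, 1.12, 1.47, 1.22 and 1.42 in the unstimulated-like samples, a ratio of medians of 11.2. TNFAIP3, a ubiquitin-editing enzyme that dampens TNF signalling, stood at 2.78, 2.75, 1.82, 2.88 and 2.99 in the TNF-like and 0.134, 0.0643, 0.121, 0.136 and 0.136 in the unstimulated-like samples, a ratio of 20.7. CXCL8, a chemokine that attracts neutrophils, stood at 10.4, 11.6, 12.9, 9.87 and 11.3 in the TNF-like and 0.170, 0.365, 1.09, 0.421 and 0.649 in the unstimulated-like samples, a ratio of 26.7 (54.2 when each hashed sample was cut to the 49 cells of the smallest). No gene of the trio overlapped between the sets. The small sample HTO3+HTO5 was the lowest TNF-like sample for NFKBIA and TNFAIP3 and the highest for CXCL8, and HTO3+HTO7, the smallest unstimulated-like sample, was the highest of its set for NFKBIA and CXCL8.

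**Figure D2:**
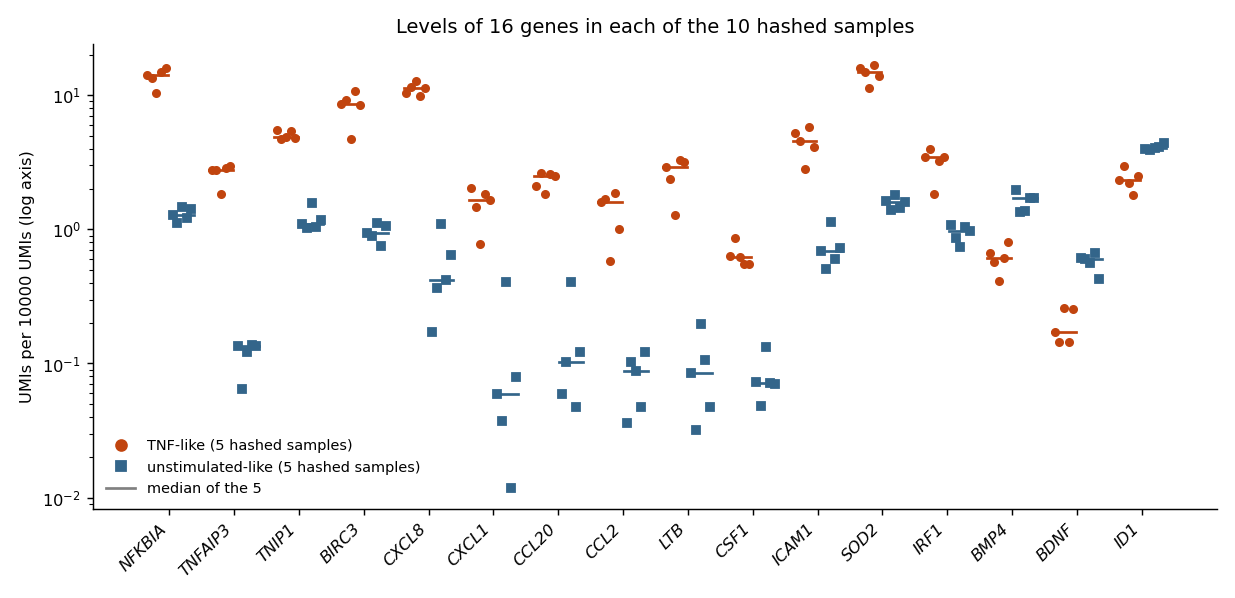
Levels of 16 genes in UMIs per 10000 UMIs on a log axis, with 1 point per hashed sample and a bar at the median of each set of 5. For every gene shown the 5 TNF-like points lie on 1 side of the 5 unstimulated-like points, above them for 13 genes and below them for BMP4, BDNF and ID1.

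The levels per cell of these same genes describe how the choice of samples looks in single cells and are no separate result. Each cell was thinned to 5000 UMIs, which left 1181 TNF-like and 892 unstimulated-like cells and set aside 152 shallower cells. The 3 genes together had a median of 13 UMIs per thinned cell in the TNF-like set, where medians of single samples ran from 11 to 14, and a median of 0 in each unstimulated-like sample. Only 7 unstimulated-like cells (0.785%) reached the TNF-like median, and 19 TNF-like cells (1.61%) had no UMI of the 3 genes, against 58.5% of the unstimulated-like cells. After thinning, TNFAIP3 had a UMI in 48.9% to 73.5% of TNF-like and 2.19% to 6.35% of unstimulated-like cells, and without thinning in 61.2% to 83.2% and 5.52% to 12.4%. BIRC3, an inhibitor of cell death described below, had a UMI in 75.6% to 92.7% and 27.01% to 30.2% of thinned cells (81.6% to 95.6% and 40.9% to 45.02% unthinned). The pool offered no cells known not to express these genes as a measure of free RNA, whose part in the low shares was not tested.

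**Figure D3:**
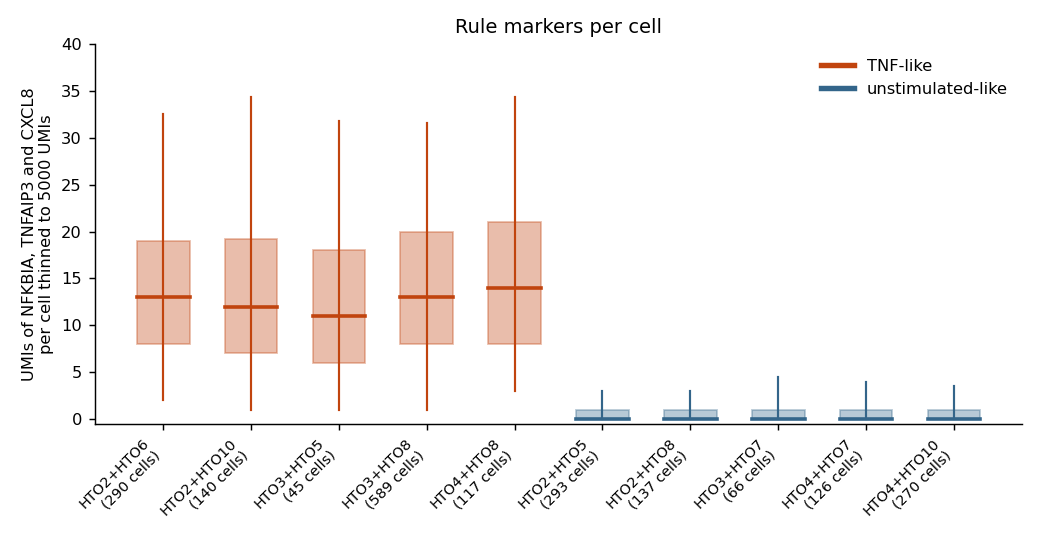
UMIs of NFKBIA, TNFAIP3 and CXCL8 per cell after thinning to 5000 UMIs, by hashed sample; boxes span the middle of the distribution (quartiles), bars mark the median and lines reach toward the extremes, leaving out 5% of cells at each end. Medians are 11 to 14 in the TNF-like samples and 0 in each unstimulated-like sample.

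The list of NF-kB feedback inhibitors holds NFKBIA and TNFAIP3, which chose the samples and made up 63.6% to 70.3% of its sum in the TNF-like samples. The summed level was 19.3 to 26.9 in the TNF-like and 3.31 to 4.44 in the unstimulated-like samples, a ratio of 7.05, and the median ratio of members was 3.13 against 0.952 for all genes. Of 11 members 10 passed, and 7 were called higher, those 2 included, and 0 lower. Without them the other 9 members summed to 7.03 to 8.81 against 2.12 to 2.85, a ratio of 3.54, and 5 were called higher. These members count as used too, so the remainder is not free of the choice of samples. TNIP1, a ubiquitin-binding partner of A20, stood at 5.54, 4.76, 4.86, 5.38 and 4.83 in the TNF-like and 1.09, 1.03, 1.58, 1.04 and 1.17 in the unstimulated-like samples, a ratio of 4.45. For TNIP1 the lowest TNF-like sample was HTO2+HTO10 and the highest unstimulated-like sample HTO3+HTO7, without overlap. NFKBIE, which encodes IkB-epsilon, was at 0.344 to 0.603 against 0.0771 to 0.145 in the TNF-like against the unstimulated-like samples. BCL3, a nuclear IkB protein, was at 0.636 to 0.795 against 0.177 to 0.227, and CYLD, a deubiquitinase that trims the signalling chains, at 0.223 to 0.345 against 0.100 to 0.154. ZC3H12A, an RNase that destroys cytokine mRNAs, stood at 0.137 to 0.256 against 0.0356 to 0.110. NFKBIB, NFKBIZ and TNIP2 passed without a call because the sets overlapped, with medians 1.65, 2.30 and 1.97 times as high. TNIP3 did not pass the level filter and had 142 against 5 UMIs.

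The upstream sequences of NFKBIA and TNFAIP3 are shown because both genes define the sets and carry matches to the kappaB consensus, the sequence that NF-kB dimers bind. They come from the RefSeq promoter table of GRCh38.p14, 5′ to 3′ on the gene's own strand, and capitals mark the match. The NFKBIA window covers the 120 bases before the start site (chr14:35404750-35404869, minus strand) and its match begins 81 bases before it. For TNFAIP3 only 30 bases are shown (chr6:137867188-137867217, plus strand), since GENCODE 29 starts the gene farther upstream than RefSeq; its matches begin 67 and 55 bases before the RefSeq start.
NFKBIA: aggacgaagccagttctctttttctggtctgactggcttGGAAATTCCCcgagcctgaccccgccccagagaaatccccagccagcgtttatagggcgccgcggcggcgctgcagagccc
TNFAIP3: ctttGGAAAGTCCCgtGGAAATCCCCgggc

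NFKB1, NFKB2 and RELB were the NF-kB subunits called higher, with 1 kinase. All 11 members of the subunit and kinase list passed, 4 were called higher and 0 lower, and the list summed to 4.43 to 5.54 in the TNF-like and 2.51 to 2.92 in the unstimulated-like samples, a ratio of 2.07. NFKB1, which encodes p105 and p50, stood at 1.37, 1.39, 1.15, 1.37 and 1.34 in the TNF-like and 0.408, 0.402, 0.551, 0.409 and 0.442 in the unstimulated-like samples, a ratio of 3.34; the lowest TNF-like sample was HTO3+HTO5 and the highest unstimulated-like sample HTO3+HTO7, without overlap. NFKB2, which encodes p100 and p52, was at 0.515 to 0.619 against 0.113 to 0.220 and RELB, its partner, at 0.876 to 1.16 against 0.301 to 0.441. RELA, the p65 subunit, did not overlap either, at 0.670 to 0.795 against 0.518 to 0.595, but its ratio of 1.46 missed the fold of a call. IKBKE, an IKK-related kinase, was the kinase called higher, at 0.172 to 0.374 against 0.0643 to 0.121. The IKK subunit genes CHUK, IKBKB and IKBKG had ratios of 0.984, 1.25 and 0.872, and the sets overlapped for CHUK and IKBKG.

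The receptor and adaptor list was mixed. It held 17 genes, of which 15 passed, 4 were called higher and 1 lower, with a median member ratio of 1.11 and a summed level of 11.4 to 17.97 in the TNF-like and 6.44 to 7.66 in the unstimulated-like samples. BIRC3, which encodes the ubiquitin ligase cIAP2, stood at 8.54, 9.21, 4.74, 10.8 and 8.50 in the TNF-like and 0.935, 0.890, 1.11, 0.747 and 1.06 in the unstimulated-like samples, a ratio of 9.14. HTO3+HTO5 was the lowest TNF-like sample and still lay above all 5 unstimulated-like samples. BIRC3 made up much of the list sum in the TNF-like samples, so the separation of the sums rests largely on this gene. BIRC2, which encodes cIAP1, was at 0.532 to 0.655 against 0.255 to 0.307, TRAF3, an adaptor that restrains non-canonical NF-kB, at 0.464 to 0.848 against 0.319 to 0.429, and TNFRSF1B, the TNFR2 receptor, at 0.2495 to 0.429 against 0.0914 to 0.142. TNFRSF1A, the TNFR1 receptor, went the other way without a call, at 0.945, 0.991, 1.08, 0.795 and 0.841 in the TNF-like and 1.18, 1.23, 1.22, 0.943 and 1.10 in the unstimulated-like samples, with overlapping sets. FADD, the adaptor that recruits caspase-8 to death receptors, was called lower, at 0.309 to 0.405 against 0.460 to 0.552. TRADD and RIPK1 had ratios of 1.11 and 1.11 with overlap, and TRAF1 had 121 against 8 UMIs and did not pass.

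Neutrophil-attracting chemokines of the CXC family showed the widest difference of the lists. Of 6 members 4 passed, all 4 of those were called higher, and the list summed to 13.1 to 14.3 in the TNF-like and 0.310 to 1.84 in the unstimulated-like samples, a ratio of 26.04; CXCL8, used in the choice of samples, was 75.3% to 89.7% of the sum in the TNF-like samples. Without it the ratio was 19.9, though the other members count as used too. CXCL1 stood at 2.03, 1.47, 0.773, 1.83 and 1.65 in the TNF-like and 0.0594, 0.0375, 0.408, 0.0119 and 0.0796 in the unstimulated-like samples. CXCL3 stood at 1.03, 1.03, 0.515, 1.06 and 0.781 in the TNF-like and 0.0620, 0.0697, 0.275, 0.0949 and 0.124 in the unstimulated-like samples, and CXCL2 at 0.155 to 0.338 against 0 to 0.0441. The ratios of medians were 27.8, 10.8 and 14.9. In each of the 3 genes HTO3+HTO5 was the lowest TNF-like sample and HTO3+HTO7 the highest unstimulated-like sample, and in CXCL1 these nearest values were 0.773 and 0.408. CXCL5 had 30 against 2 UMIs and CXCL6 10 against 1 UMIs. CXCL1, CXCL2 and CXCL3 are close copies, so reads may have been split between them and their single values are uncertain.

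Their upstream sequences are shown because the same kappaB match recurs in the copies. The CXCL1 window holds the 120 bases before the RefSeq start (chr4:73869273-73869392, plus strand), and it was identical to that of CXCL3 at 109 of 120 positions (90.8%). For CXCL2 (chr4:74099254-74099283, minus strand) and CXCL3 (chr4:74038749-74038778, minus strand) 30 bases around the match are shown. Matches on both strands overlap, and they begin 79 bases before the start in CXCL1 and CXCL3 and 78 bases before it in CXCL2. The window of CXCL8 held no match to these letters and 1 match to the AP-1 motif TGANTCA, 137 bases before the start.
CXCL1: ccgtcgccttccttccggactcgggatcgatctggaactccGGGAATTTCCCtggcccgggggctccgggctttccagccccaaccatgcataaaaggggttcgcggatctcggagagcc
CXCL2: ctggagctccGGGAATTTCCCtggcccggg
CXCL3: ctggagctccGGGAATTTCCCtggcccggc

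Of the other chemokines, CCL20 and CCL2 were called higher, among 7 of 10 that passed. CCL20, which attracts CCR6-bearing cells, stood at 2.11, 2.63, 1.82, 2.60 and 2.52 in the TNF-like and 0.0594, 0.102, 0.408, 0.0475 and 0.121 in the unstimulated-like samples, a ratio of 24.7. CCL2, which attracts monocytes, stood at 1.60, 1.70, 0.584, 1.86 and 0.998 in the TNF-like and 0.0361, 0.102, 0.0882, 0.0475 and 0.121 in the unstimulated-like samples, a ratio of 18.2. Neither gene overlapped, and HTO3+HTO5 was the lowest TNF-like sample for both. CXCL10 and CXCL11, ligands of CXCR3, a chemokine receptor of T cells, overlapped, with CXCL10 at 1.34, 0.749, 0.0859, 0.377 and 0.236 in the TNF-like and 0.558, 0.129, 0.165, 0.154 and 0.233 in the unstimulated-like samples. The samples HTO2+HTO6 and HTO2+HTO5 were the highest of their sets for CXCL10 and CXCL11. In the remaining 5 hashed samples CXCL10 was at 45.8 to 95.9 and CCL20 at 0.740 to 1.51.

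Cytokines and colony-stimulating factors were sparse. Of 14 members 7 passed, 4 were called higher and 0 lower, and the list summed to 4.95 to 6.25 in the TNF-like and 2.14 to 2.85 in the unstimulated-like samples, a ratio of 2.11. IL32, a proinflammatory cytokine, stood at 2.30, 2.55, 2.30, 2.18 and 1.98 in the TNF-like and 0.648, 0.483, 0.848, 0.581 and 0.596 in the unstimulated-like samples, a ratio of 3.86. In IL32 the lowest TNF-like sample was HTO4+HTO8 and the highest unstimulated-like sample HTO3+HTO7, without overlap. CSF1, the macrophage growth factor, stood at 0.633, 0.856, 0.618, 0.556 and 0.552 in the TNF-like and 0.0723, 0.0483, 0.132, 0.0712 and 0.0708 in the unstimulated-like samples, a ratio of 8.69. IL1B, which encodes interleukin 1 beta, was at 0.268 to 0.550 against 0.0107 to 0.165, and CSF2, which encodes GM-CSF, had 149 against 9 UMIs. IL18 had a ratio of 0.816 and LIF of 1.18, both with overlap. IL6 (12 against 1 UMIs) and CSF3 (11 against 1 UMIs) were near the floor in both sets, and IL1A had 72 against 2 UMIs.

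Among ligands of the TNF superfamily LTB and TNFSF15 were called higher, of 5 that passed in a list of 9. LTB, which encodes lymphotoxin beta, stood at 2.93, 2.39, 1.29, 3.30 and 3.16 in the TNF-like and 0.0852, 0.0322, 0.198, 0.107 and 0.0472 in the unstimulated-like samples, a ratio of 34.3. Its spread was wide, and the lowest TNF-like sample was HTO3+HTO5 and the highest unstimulated-like sample HTO3+HTO7, without overlap. TNFSF15 was at 0.158 to 0.205 against 0.0708 to 0.113. TNF itself had 81 UMIs over the TNF-like samples and 0 in each unstimulated-like sample, and its mean level did not pass. TNFSF10, the death ligand TRAIL, varied within both sets, at 1.0001, 0.495, 0.189, 1.51 and 0.538 in the TNF-like and 0.836, 0.375, 0.253, 0.267 and 0.906 in the unstimulated-like samples. Its highest values were in HTO3+HTO8 and HTO4+HTO10, 1 sample of each set.

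Adhesion and costimulation genes followed, with 4 called higher and 0 lower among 9 that passed of 11. ICAM1, the ligand of the leukocyte integrin LFA-1, stood at 5.21, 4.56, 2.83, 5.78 and 4.15 in the TNF-like and 0.692, 0.504, 1.13, 0.605 and 0.729 in the unstimulated-like samples, a ratio of 6.59; the lowest TNF-like sample was HTO3+HTO5 and the highest unstimulated-like sample HTO3+HTO7, without overlap. VCAM1, the ligand of the integrin VLA-4, stood at 1.18, 0.705, 0.928, 1.47 and 0.414 in the TNF-like and 0.116, 0.0161, 0.253, 0.0415 and 0.121 in the unstimulated-like samples, a ratio of 7.99. The nearest values of VCAM1 were 0.414 in HTO4+HTO8 and 0.253 in HTO3+HTO7. CD83 was at 0.202 to 0.412 against 0.0594 to 0.165 and ICOSLG, a costimulatory ligand, at 0.145 to 0.220 against 0.0107 to 0.0331. CD47 overlapped at a ratio of 1.84, and CD40 at 1.42. CD274, which encodes PD-L1, had 69 against 23 UMIs and did not pass, while it stood at 1.82 to 2.13 in the remaining 5 hashed samples.

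The survival and death list contained 8 genes called higher and 0 called lower, of 17 that passed among 18, and genes on both sides of the death decision were among the 8. The list summed to 19.3 to 21.7 in the TNF-like and 10.9 to 12.9 in the unstimulated-like samples, a ratio of 1.81. Against death, IER3 stood at 7.08, 6.73, 7.27, 5.90 and 8.12 in the TNF-like and 2.52, 3.02, 3.53, 2.65 and 3.06 in the unstimulated-like samples, a ratio of 2.35; the lowest TNF-like sample was HTO3+HTO8 and the highest unstimulated-like sample HTO3+HTO7, without overlap. CFLAR, which encodes the caspase-8 inhibitor FLIP, was at 1.44 to 1.86 against 0.628 to 1.10, MCL1 at 0.713 to 0.926 against 0.469 to 0.552, and BCL2A1, a BCL2 relative and NF-kB target, had 474 against 17 UMIs. Toward death, BID, the BH3 protein cut by caspase-8, stood at 4.29, 3.37, 3.09, 4.03 and 3.95 in the TNF-like and 1.75, 1.57, 1.79, 1.65 and 1.80 in the unstimulated-like samples, a ratio of 2.26. BBC3, which encodes PUMA, had 356 against 34 UMIs, and the TRAIL receptor TNFRSF10B was at 0.458 to 0.709 against 0.231 to 0.307. CASP8 did not overlap but had a ratio of 1.34. FAS touched the edge, with the lowest TNF-like value 0.0687 in HTO3+HTO5 below the highest unstimulated-like value 0.0712 in HTO4+HTO7. BCL2L1 and BAX had ratios of 0.702 and 0.839.

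In the growth arrest list the sets overlapped as a sum, with 1 gene called in each direction among 7 that passed of 9. CDKN1A, the cell cycle inhibitor p21, stood at 0.670, 0.840, 0.893, 0.582 and 0.854 in the TNF-like and 0.207, 0.327, 0.154, 0.356 and 0.1504 in the unstimulated-like samples, a ratio of 4.07. Of p21 the lowest TNF-like sample was HTO3+HTO8 and the highest unstimulated-like sample HTO4+HTO7, without overlap. GDF15, a stress-induced TGF-beta family member, was called lower, at 0.228, 0.156, 0.206, 0.221 and 0.289 in the TNF-like and 0.488, 0.472, 0.518, 0.297 and 0.528 in the unstimulated-like samples, a ratio of 0.453. The smallest gap of GDF15 lay between 0.289 in HTO4+HTO8 and 0.297 in HTO4+HTO7. Both genes are known p53 targets, and MDM2, another, had a ratio of 1.31 with overlap.

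Redox and cofactor genes split by gene. All 14 passed, 6 were called higher and 0 lower, while the sum overlapped at 180.3 to 212 in the TNF-like and 139 to 185 in the unstimulated-like samples. SOD2, the mitochondrial superoxide dismutase, stood at 15.96, 14.9, 11.4, 16.8 and 13.8 in the TNF-like and 1.63, 1.39, 1.80, 1.44 and 1.61 in the unstimulated-like samples, a ratio of 9.22. Again the lowest TNF-like sample was HTO3+HTO5 and the highest unstimulated-like sample HTO3+HTO7, without overlap. NAMPT, which makes an NAD precursor, was at 2.42 to 3.09 against 1.204 to 1.59 and SAT1, which acetylates polyamines, at 3.03 to 5.49 against 1.65 to 2.63. KYNU, an enzyme of tryptophan breakdown, was at 0.155 to 0.269 against 0.00885 to 0.0429, and GCH1, which starts tetrahydrobiopterin synthesis, at 0.0859 to 0.205 against 0.0107 to 0.0671. PTGES, a prostaglandin E synthase, was at 0.189 to 0.268 against 0.0796 to 0.154, whereas PTGS2, which encodes COX-2, overlapped because HTO3+HTO7 reached 0.606 against a TNF-like range of 0.399 to 0.962. The ferritin genes FTH1 and FTL had ratios of 1.15 and 1.01.

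Of the antimicrobial and acute-phase secretions, SAA1 and WFDC2 were called higher among 10 that passed of 16, and the sums overlapped. SAA1, an acute-phase apolipoprotein, stood at 1.5001, 1.37, 0.928, 1.70 and 1.42 in the TNF-like and 0.715, 0.231, 0.518, 0.569 and 0.616 in the unstimulated-like samples, a ratio of 2.50; reads may be shared with its close copy SAA2, which overlapped at a ratio of 2.45. WFDC2, which encodes the ovarian tumour marker HE4, stood at 2.31, 2.40, 1.89, 3.15 and 2.63 in the TNF-like and 1.58, 1.23, 1.56, 1.47 and 1.66 in the unstimulated-like samples, a ratio of 1.54. LCN2, an iron-sequestering protein, overlapped, at 17.1, 9.34, 9.38, 15.5 and 19.8 in the TNF-like and 17.4, 6.88, 10.9, 18.4 and 12.6 in the unstimulated-like samples. Complement C3 and CFB had ratios of 1.77 and 1.34 with overlap.

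Interferon-linked genes overlapped between the sets as a list. All 20 passed, 3 were called higher and 0 lower, and the sum was 25.96 to 74.03 in the TNF-like and 26.5 to 63.3 in the unstimulated-like samples. IRF1, a transcription factor induced by NF-kB and by interferon gamma, stood at 3.46, 4.01, 1.84, 3.26 and 3.49 in the TNF-like and 1.08, 0.869, 0.738, 1.05 and 0.976 in the unstimulated-like samples, a ratio of 3.54; the lowest TNF-like sample was HTO3+HTO5 and the highest unstimulated-like sample HTO2+HTO5, without overlap. GBP1 and GBP2, guanylate-binding proteins, were at 0.972 to 1.92 against 0.451 to 0.861 and 0.939 to 1.35 against 0.391 to 0.604; the family has close copies, so single values are uncertain. In the remaining 5 hashed samples IRF1 stood at 36.6 to 42.6 and GBP1 at 28.4 to 39.7, above both sets. IDO1, a tryptophan-degrading enzyme, and the antiviral genes IFIT1, MX1 and OAS1 overlapped between the sets. Of class I antigen presentation, TAP1 and TAPBP were called higher among 15 that passed of 16. TAP1, a peptide transporter subunit, was at 0.292 to 0.501 against 0.182 to 0.242 and TAPBP, which loads peptide onto class I, at 1.15 to 1.90 against 0.760 to 1.15 (the nearest values were 1.151 and 1.146), while B2M, the small subunit shared by these molecules, had a ratio of 1.15 with overlap.

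**Figure D4:**
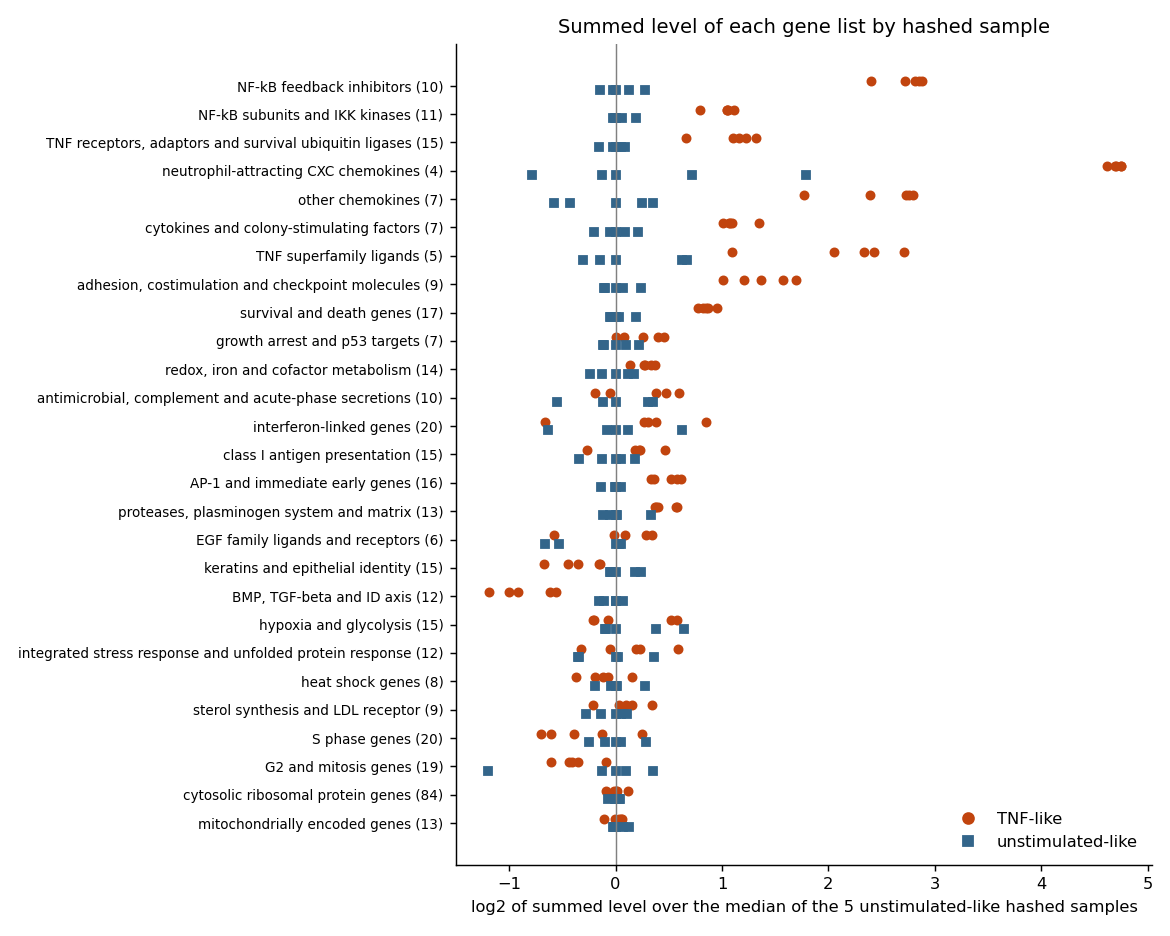
Summed level of each gene list in each hashed sample, as log2 of its ratio to the median of the 5 unstimulated-like samples, with the number of members that passed in parentheses. The CXC chemokine list sets the TNF-like samples (orange) farthest to the right, the BMP, TGF-beta and ID list sets them farthest to the left, and ribosomal and mitochondrial genes stay near 0.

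Immediate early genes were higher in part. Of 17 members 16 passed, 4 were called higher and 0 lower, and the list summed to 14.5 to 17.6 in the TNF-like and 10.5 to 11.9 in the unstimulated-like samples, a ratio of 1.44. JUNB, an AP-1 subunit, stood at 1.06, 1.18, 1.24, 1.13 and 1.12 in the TNF-like and 0.452, 0.322, 0.353, 0.344 and 0.590 in the unstimulated-like samples, a ratio of 3.20; the lowest TNF-like sample was HTO2+HTO6 and the highest unstimulated-like sample HTO4+HTO10, without overlap. ZFP36L1, a protein that speeds the decay of mRNAs with AU-rich elements, was at 3.18 to 3.54 against 1.43 to 1.97, KLF6 at 1.31 to 1.74 against 0.736 to 1.25 and MAFF at 0.268 to 0.550 against 0.137 to 0.264. FOS, EGR1 and ATF3 had ratios of 0.859, 0.959 and 0.737 with overlap.

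Proteases and matrix genes summed to 33.2 to 38.2 in the TNF-like and 23.6 to 32.3 in the unstimulated-like samples, a ratio of 1.32. The nearest sums were 33.2 in HTO2+HTO10 and 32.3 in HTO3+HTO7, and their Poisson intervals overlapped. Of 13 that passed among 17, 4 were called higher and 0 lower. PLAU, the urokinase plasminogen activator, stood at 1.99, 2.51, 2.71, 1.64 and 2.78 in the TNF-like and 0.682, 0.799, 1.07, 0.664 and 0.525 in the unstimulated-like samples, a ratio of 3.69; the lowest TNF-like sample was HTO3+HTO8 and the highest unstimulated-like sample HTO3+HTO7, without overlap. SERPINE2, a serine protease inhibitor, was at 3.93 to 5.90 against 2.91 to 3.91. LAMB3, a laminin chain, overlapped at a ratio of 1.79, since HTO3+HTO7 reached 2.01. The EGF family ligands AREG, EREG, HBEGF and TGFA had no call, with ratios of 0.922, 1.99, 1.83 and 1.86, and EGFR had 1.31.

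On the lower side, the BMP and ID axis had the lowest summed ratio of the lists. BMP4, a growth factor of the TGF-beta family, signals through SMAD proteins that induce the ID genes, inhibitors of differentiation. The list summed to 4.40 to 6.83 in the TNF-like and 9.03 to 10.6 in the unstimulated-like samples, a ratio of 0.529, without overlap, and of 12 that passed among 15 (13 in the matrix) it held 3 genes called lower and 1 called higher. BMP4 stood at 0.668, 0.571, 0.412, 0.608 and 0.801 in the TNF-like and 1.97, 1.35, 1.37, 1.73 and 1.71 in the unstimulated-like samples, a ratio of 0.355. ID1 stood at 2.33, 2.98, 2.23, 1.82 and 2.51 in the TNF-like and 4.004, 3.94, 4.04, 4.11 and 4.42 in the unstimulated-like samples, a ratio of 0.576. BDNF, a neurotrophin placed in this list with BMP4, stood at 0.173, 0.145, 0.258, 0.145 and 0.256 in the TNF-like and 0.617, 0.601, 0.562, 0.670 and 0.428 in the unstimulated-like samples, a ratio of 0.287. In each of these the highest TNF-like sample lay below the lowest unstimulated-like sample. ID2 and ID3 had ratios of 0.564 and 0.479 but overlapped. INHBA, which encodes the activin A chain, was the member called higher, with 171 against 14 UMIs.

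Epithelial genes were lower as a sum, at 50.4 to 72.7 in the TNF-like and 77.7 to 94.8 in the unstimulated-like samples, a ratio of 0.784 without overlap, although ZNF703, a transcriptional corepressor, was the member called lower among 15 that passed of 17 and 0 were called higher. KRT19 stood at 9.68, 9.84, 8.38, 14.2 and 14.6 in the TNF-like and 14.6, 16.3, 17.9, 19.8 and 19.8 in the unstimulated-like samples, and the sets overlapped between 14.56 in HTO2+HTO5 and 14.65 in HTO4+HTO8. KRT18 stood at 23.5, 20.4, 17.6, 25.9 and 24.2 in the TNF-like and 29.3, 28.1, 26.5, 31.2 and 35.1 in the unstimulated-like samples, a ratio of 0.801, and KRT8 at a ratio of 0.829; neither overlapped, and both missed the fold. ZNF703 stood at 0.665, 0.576, 0.326, 0.754 and 0.650 in the TNF-like and 1.11, 1.003, 0.771, 1.15 and 1.06 in the unstimulated-like samples, a ratio of 0.612. EPCAM had a ratio of 0.914 and the epithelial regulators ELF3, KLF5 and SOX9 ratios of 1.09, 1.53 and 1.82 with overlap. In the remaining 5 hashed samples KRT18 was at 15.1 to 19.4 and KRT19 at 5.59 to 8.17.

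Outside the lists, the 15 genes with the largest and the 15 with the smallest ratio at a mean level of at least 0.2 were taken by rule. On the higher side TNFAIP2, a TNF-induced gene linked to membrane nanotubes, stood at 11.1, 9.35, 5.996, 15.2 and 7.53 in the TNF-like and 1.54, 1.21, 1.45, 1.26 and 1.96 in the unstimulated-like samples, a ratio of 6.43; the lowest TNF-like sample was HTO3+HTO5 and the highest unstimulated-like sample HTO4+HTO10, without overlap. PTX3, a soluble pattern recognition protein, stood at 3.63, 2.67, 3.75, 2.97 and 3.001 in the TNF-like and 0.276, 0.204, 0.727, 0.326 and 0.310 in the unstimulated-like samples, a ratio of 9.69. G0S2, an inhibitor of the fat lipase ATGL, stood at 4.02, 6.03, 2.75, 5.49 and 4.64 in the TNF-like and 0.694, 1.06, 1.003, 0.925 and 0.602 in the unstimulated-like samples, a ratio of 5.02. Parts of the NF-kB machinery were among them: RIPK2, the kinase downstream of NOD receptors, at 0.876 to 1.77 against 0.291 to 0.441, IRAK2, a kinase of Toll-like receptor signalling, at 0.550 to 0.683 against 0.125 to 0.187, and TIFA, a TRAF6-binding adaptor, at 0.326 to 0.539 against 0.0661 to 0.136. Metabolic genes were GFPT2 of the hexosamine pathway (0.533 to 0.856 against 0.130 to 0.1799), SGPP2, a sphingosine-1-phosphate phosphatase (0.618 to 0.819 against 0.0331 to 0.0981), PLPP3, a lipid phosphatase (0.309 to 0.576 against 0 to 0.0737), and SLC2A6, a hexose transporter (0.601 to 0.768 against 0.0661 to 0.186). GBP4, with 90 UMIs in all unstimulated-like samples, and GBP3 had ratios of 13.8 and 4.001, TNFAIP8, a regulator of cell death, 4.18, CCDC71L 8.12 and C15orf48 6.61. Cut to 49 cells per hashed sample, the ratios of GBP4, G0S2 and GFPT2 were 3.75, 8.80 and 6.26, and thinned to 5000 UMIs per cell that of SGPP2 was 16.4.

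On the lower side the ratios were closer to 1. SLC30A1, a zinc exporter, stood at 0.185, 0.145, 0.120, 0.149 and 0.204 in the TNF-like and 0.382, 0.391, 0.231, 0.356 and 0.407 in the unstimulated-like samples, a ratio of 0.389. NR2F2, the nuclear receptor COUP-TFII, stood at 0.740, 0.937, 0.979, 0.719 and 0.867 in the TNF-like and 1.72, 1.96, 1.55, 1.93 and 1.58 in the unstimulated-like samples, a ratio of 0.504; the highest TNF-like sample was HTO3+HTO5 and the lowest unstimulated-like sample HTO3+HTO7, without overlap. MLPH, a linker of melanosome transport, stood at 0.382 to 0.498 against 0.804 to 0.955, SHISA2, an inhibitor of WNT and FGF receptor maturation, at 0.165 to 0.399 against 0.518 to 0.623 and SLC5A3, the myo-inositol transporter, at 0.780 to 1.34 against 1.70 to 2.21. B3GALT5, a galactosyltransferase, had a ratio of 0.430, and B3GALT5-AS1, an antisense gene within its span, 0.405; reads of the pair may not be separable, since no source used here gives the strand of counting. SDC1, a cell-surface proteoglycan, AHNAK2, CBX1, POLR3K, CCDC51, C16orf74, DLEU1 and IGFL2-AS1 had ratios of 0.545, 0.544, 0.523, 0.515, 0.514, 0.534, 0.425 and 0.461. Cut to 49 cells per hashed sample, SLC30A1, SLC5A3 and C16orf74 had ratios of 0.664, 0.342 and 0.362.

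Several programmes had no gene called in either direction, against 2.75% and 1.76% of all genes that passed. At such shares a list of 8 to 20 genes can lack a called gene without differing from the rest. For lists of that length the missing calls therefore do not show that a programme was unchanged. Hypoxia and glycolysis genes (15 that passed) summed to 19.8 to 34.3 in the TNF-like and 21.4 to 35.8 in the unstimulated-like samples. The integrated stress and unfolded protein response (12 that passed), heat shock genes (8) and sterol synthesis genes (9) had summed ratios of 1.14, 0.922 and 1.07, each with overlap. S phase genes (20 that passed) had a ratio of 0.762 and G2 and mitosis genes (19) of 0.752, both with overlap, and the latter turned to 1.30 when samples were cut to 49 cells each. HTO3+HTO7 had the lowest G2 and mitosis sum of the 10, at 2.41 against 3.64 to 7.06 in the others. The 84 ribosomal protein genes that passed had a summed ratio of 1.001 and the 13 mitochondrially encoded genes of 1.02.

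Within a set the 5 samples were close for most genes. Over 2917 genes with a mean level of at least 0.5, the highest sample exceeded the lowest by a median of 1.29-fold in the TNF-like set and 1.26-fold in the unstimulated-like set, and 30 and 32 genes differed by 3-fold or more. Genes of the hypoxia and interferon lists are given as examples, chosen after their values were seen. EGLN3, an oxygen-sensing prolyl hydroxylase, stood at 0.503, 0.280, 0.326, 2.46 and 0.315 in the TNF-like and 0.682, 0.198, 0.242, 0.243 and 3.39 in the unstimulated-like samples, so that HTO3+HTO8 and HTO4+HTO10 were set apart from the other 8 samples. ADM, which encodes adrenomedullin, and PFKFB3, a regulator of glycolysis, were also highest in these samples, at 0.920 and 1.22 and at 0.976 and 1.35. MX1, an antiviral GTPase, and APOL1 were highest there too, with MX1 at 1.21, 0.549, 0.326, 2.45 and 1.46 in the TNF-like and 0.813, 0.922, 0.430, 0.783 and 1.997 in the unstimulated-like samples. IFI6, an interferon-induced mitochondrial protein, was lowest in HTO3+HTO5 (0.189) and HTO3+HTO7 (0.419), the smallest sample of each set. The hypoxia and glycolysis list as a sum was high in both pairs. It was 34.3 in HTO3+HTO8, 35.8 in HTO4+HTO10, 32.9 in HTO3+HTO5 and 29.9 in HTO3+HTO7, against 19.8 to 22.9 in the other samples. ENO1, a glycolytic enzyme, was highest in HTO3+HTO5 and HTO3+HTO7, at 12.0 and 10.8. Each of these pairs joins 1 sample of each set, and no label says whether they share a tumour. Without HTO3+HTO8 and HTO4+HTO10, 312 genes were called higher and 227 lower, and without HTO3+HTO5 and HTO3+HTO7, 385 and 299. Fewer samples make no overlap easier to meet. Leaving out any 1 sample also gave more calls, 264 to 351 higher and 183 to 266 lower. How much of the rise belongs to these pairs was not tested.

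**Figure D5:**
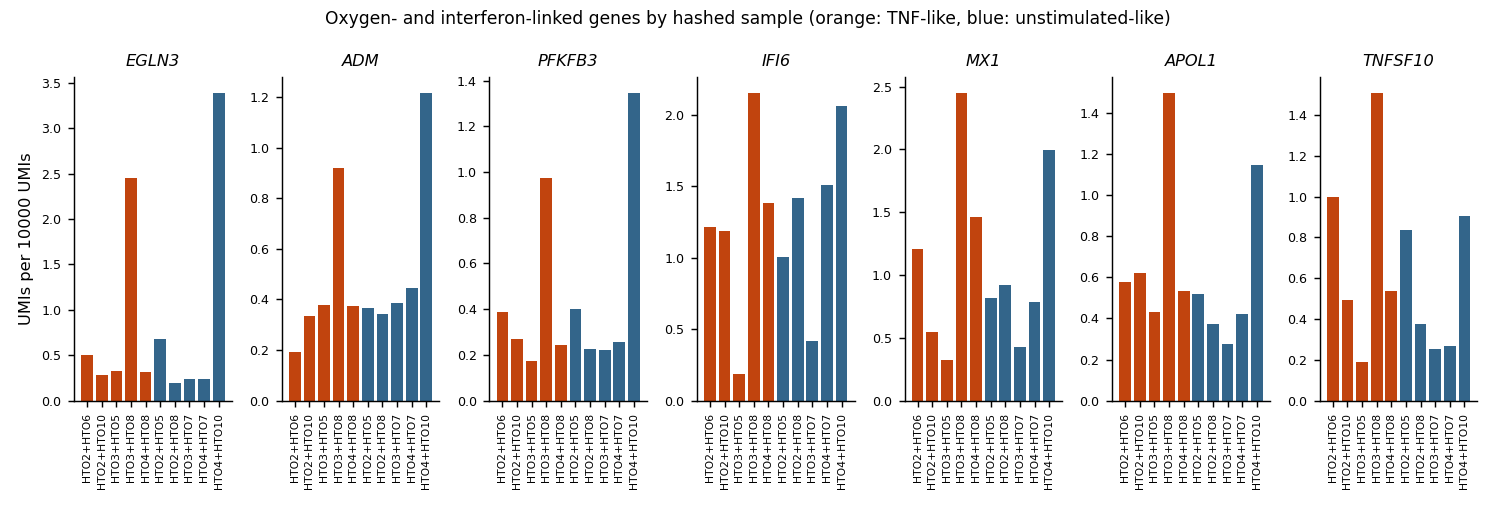
Levels of 7 genes linked to oxygen or interferon, in UMIs per 10000 UMIs, with 1 bar per hashed sample and axes from 0. HTO3+HTO8 among the TNF-like and HTO4+HTO10 among the unstimulated-like samples have the highest bar of their set in each panel, and IFI6 is lowest in HTO3+HTO5 and HTO3+HTO7.

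Samples also differed in the genes that chose them. HTO3+HTO7 was the highest unstimulated-like sample for 89 of the 260 genes called higher, among them CXCL1, CXCL8, CCL20, LTB, VCAM1 and PTX3, and HTO4+HTO10 for 65. In thinned cells its rule markers had a level of 4.5 UMIs exceeded by 5% of cells, against 3 to 4 in the other unstimulated-like samples. HTO3+HTO5, with 49 cells, was the lowest TNF-like sample for 135 of the 260. Its feedback inhibitor sum was 19.3 (exact 95% Poisson interval 18.2 to 20.5, counting error only) against 24.2 to 26.9 in the other TNF-like samples. How often each sample was the extreme of its set over all genes that passed was not computed. HTO3+HTO5 and HTO3+HTO7 are the smallest of their sets and carry the most counting error, so these counts do not show a different response.

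Barcodes outside the cell filter kept the direction of most called genes but fewer calls. The rule left out 1089 barcodes with the same 10 hashtag pairs, 37 to 301 per sample, with a median of 31.0% mitochondrial UMIs and 4636 UMIs. There 111 genes (1.18%) were called higher and 68 (0.72%) lower, of which 74 and 20 were also called in the cells. Of the genes called in the cells, 249 of 260 kept a ratio above 1 and 145 of 166 a ratio below 1. The same shares over all genes that passed were not computed. The ratio was smaller there than in the cells for 193 of the 259 genes called higher whose ratio is finite, and nearer to 1 or past it for 128 of the 166 called lower. These genes were picked for their separation in the cells, so ratios nearer to 1 in other barcodes can follow from that choice alone. NFKBIA had a ratio of 6.78 in these barcodes against 11.2 in the cells, TNFAIP3 12.2 against 20.7 and CXCL8 16.5 against 26.7. BMP4 had 0.484 and ID1 0.469, whereas BDNF had 0.851 with overlapping sets and GDF15 had 1.08. Some genes stood farther apart there, among them CXCL3 at 34.7 against 10.8, TIFA at 8.06 against 5.06, GFPT2 at 7.54 against 4.44 and ZNF703 at 0.430 against 0.612. For CXCL3, TIFA and GFPT2 the unstimulated-like medians there were 0.0226, 0.0158 and 0.0475. Such levels rest on few UMIs, so whether these genes truly stood farther apart is not resolved. These barcodes carry the same hashtag pairs, and free RNA in them was not measured. Near the limits of the filter, cells were kept at 1000 detected genes and 19.998% mitochondrial UMIs and left out at 987 genes and 20.007%, and the ratio of the second to the third hashtag was 3.02 inside and 2.98 outside.

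Promoters of the genes were searched in the 250 bases before each RefSeq start for the kappaB consensus on both strands. It was matched in 66 of 319 promoters (20.7%) of 198 genes called higher that are in the table, in 25 of 213 (11.7%) of 125 genes called lower, in 12.3% of promoters of all genes that passed and in 9.96% of all 35116 promoters in the table. The AP-1 motif TGANTCA, which reads the same on both strands, was matched in 7.52%, 2.82%, 4.40% and 6.57%. The sets were chosen by the expression of NF-kB target genes, so a larger kappaB share among genes called higher can follow from that choice. These shares therefore cannot test whether NF-kB acts on the genes called higher. They count promoters, of which some genes have several, and are not shares of genes. A match is a string of letters and does not show binding. LTB, the gene with the largest ratio among the ligands, is shown as a further example (chr6:31582492-31582521, minus strand, 30 bases), with its match 86 bases before the start.
LTB: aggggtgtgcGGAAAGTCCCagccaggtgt

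The 3′ untranslated regions were searched for UUAUUUAUU, the core of AU-rich elements that shorten the life of cytokine mRNAs. In GENCODE 29 it was present in 41 of 255 genes called higher (16.1%), 18 of 155 called lower (11.6%) and 839 of 9089 that passed (9.23%), with median lengths of 1573, 1678 and 1362 bases. Per 1000 bases there were 0.105, 0.0851 and 0.0617 matches. The element was found 3 times in CXCL1, 5 times in CXCL2, 3 times in CSF2 and 2 times in IL1B, all called higher. The highest count of the called genes was 8, in POLR3K, which was called lower. It was found 0 times in NFKBIA, CCL20 and CCL2.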

How the data were processed

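Raw UMI counts of 36601 human genes and 10 hashtags in 5269 barcodes of 1 pool were deposited by the authors in 1 matrix. It was written by Cell Ranger 5.0.1 per the file headers, whereas version 2.1.1 and the genome GRCh38 are listed per the submitters' processing notes, a difference not resolved here. Cells with at least 1000 genes and at most 20% mitochondrial UMIs were kept. A pair was the top 2 hashtags, where the weaker needed 10 or more counts and 3 or more times those of the next, which left out 394 kept cells, and no doublet caller was run. Counts were summed per pair and scaled to 10000 UMIs (python 3.11.15, numpy 2.4.6, scipy 1.17.1). Genes with a mean level of at least 0.05 were called when the sets did not overlap and the medians differed 1.5-fold. The call rule was tested on simulated data. Named genes were the 3 rule markers, members of the lists, and the 15 largest and 15 smallest ratios with a mean level of at least 0.2 outside them; some genes counted in the lists are not reported here by name. The hashed samples and the lists were chosen with earlier results of these data known. Alternatives were other filters, scalings, folds and weights, thinned or equal cell numbers, and leaving out each hashed sample. Sequences came from RefSeq (GRCh38.p14) and GENCODE 29. Intervals and floors cover counting error only.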

Additional observations from a re-analysis of the deposited data

Results flagged for a closer look

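A single hashed sample stood apart from the other 4 of its set, by Dixon's gap criterion at the 95% level (gap over range above 0.71), in 51 of the 383 sets of 5 values looked at, which cover the lists and the genes named above. Chance alone sets apart about 1 in 20 such sets when values are normal with equal spread. These levels come from samples of unequal depth and some rest on few UMIs, so the 51 cannot be set against that share. The 10 hashed samples also contribute to many genes at once, so the 51 are not independent. CSF3, IL6 and CXCL6 had 12 UMIs or fewer in each set. A level of 3 UMIs was 0.0331 in HTO3+HTO7, above its CSF2 and TNIP3 values, and 0.0515 in HTO3+HTO5, near its FAS value. CD69 had 4 UMIs in the unstimulated-like set. Levels are UMIs per 10000 UMIs, with the nearest other sample of the set in parentheses.

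HTO3+HTO7 was the highest of the unstimulated-like samples for the list of proteases, plasminogen system and matrix at 32.3 (25.8), BCL2A1 at 0.0661 (0.0118), CCL20 at 0.408 (0.121), CD83 at 0.165 (0.0855), CSF1 at 0.132 (0.0723) and CSF2 at 0.0220 (0.00885). HTO3+HTO7 was also the highest of the unstimulated-like samples for CXCL1 at 0.408 (0.0796), CXCL6 at 0.0110 (0), INHBA at 0.0661 (0.0147), NFKB1 at 0.551 (0.442), PTX3 at 0.727 (0.326) and TGFA at 0.496 (0.301). HTO3+HTO7 was also the highest of the unstimulated-like samples for TNIP1 at 1.58 (1.17), TNIP3 at 0.0220 (0.00536) and ZC3H12A at 0.110 (0.0568). HTO3+HTO5 was the highest of the TNF-like samples for CSF3 at 0.0172 (0.00750), EGR1 at 0.223 (0.0901) and IL6 at 0.0344 (0.00819). HTO3+HTO5 was the lowest of the TNF-like samples for the list of NF-kB subunits and IKK kinases at 4.43 (5.30), CCDC71L at 0.618 (0.938), FAS at 0.0687 (0.132), NFKB1 at 1.15 (1.34), TNFAIP3 at 1.82 (2.75) and TRAF3 at 0.464 (0.741). HTO3+HTO8 was the highest of the TNF-like samples for ADM at 0.920 (0.378), APOL1 at 1.5004 (0.619), C15orf48 at 1.07 (0.584), EGLN3 at 2.46 (0.503), ELF3 at 1.82 (1.04) and IFIT1 at 0.688 (0.173). HTO3+HTO8 was also the highest of the TNF-like samples for PFKFB3 at 0.976 (0.388). HTO3+HTO8 was the lowest of the TNF-like samples for EGFR at 3.27 (3.80). HTO4+HTO10 was the highest of the unstimulated-like samples for ADM at 1.22 (0.445), APOL1 at 1.15 (0.519), BIRC2 at 0.307 (0.268), CSF3 at 0.00295 (0), EGLN3 at 3.39 (0.682) and FOS at 0.224 (0.0955). HTO4+HTO10 was also the highest of the unstimulated-like samples for IFIT1 at 0.687 (0.198), IL6 at 0.00295 (0), OAS1 at 1.16 (0.625) and PFKFB3 at 1.35 (0.400). HTO2+HTO10 was the highest of the TNF-like samples for the list of cytokines and colony-stimulating factors at 6.25 (5.24) and CSF1 at 0.856 (0.633). HTO4+HTO8 was the highest of the TNF-like samples for CSF2 at 0.236 (0.0942). HTO2+HTO5 was the highest of the unstimulated-like samples for CD69 at 0.0103 (0), CXCL10 at 0.558 (0.233) and CXCL11 at 0.155 (0.0354). HTO2+HTO8 was the lowest of the unstimulated-like samples for TNFAIP3 at 0.0643 (0.121). HTO4+HTO7 was the highest of the unstimulated-like samples for NFKBIB at 0.362 (0.263). HTO4+HTO7 was the lowest of the unstimulated-like samples for GDF15 at 0.297 (0.472).

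The hashtag HTO1 is in no pair used here, and 45 of its UMIs were found in 42 of the 2225 cells, above the 3 counts that a count of 0 allows, with at most 2 in 1 cell.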

How the results depend on the processing

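The 260 genes called higher and 166 lower were 162 and 44 with a fold of 2. They were 214 and 127 with equal cell numbers, and 219 and 123 with cells thinned to 5000 UMIs. With 1 hashed sample left out in turn, which makes no overlap easier to meet, they were 264 to 351 and 183 to 266. The 266 was reached without HTO3+HTO7. Settings chosen after seeing the data gave 299 genes lower without HTO3+HTO5 and HTO3+HTO7, and 111 higher and 68 lower in barcodes outside the cell filter. Of 62 ratios recomputed (1302 values), 1262 stayed within the spread of the samples, 39 moved beyond it and 1 with separate sets reversed: C16orf74 was 1.18 in barcodes outside the filter, and the cause was not tested. Other called genes were not among the 62, and some of these reversed in those barcodes too, such as GDF15 at 1.08. For 5 lists whose sets overlap, 23 values also crossed 1, with G2 and mitosis genes going from 0.752 to as much as 1.30 and hypoxia genes from 0.950 to 1.15 to 1.19. No paired analysis was possible because no label numbers the hashed samples or ties them to a tumour. With 49 cells in the smallest hashed sample, a level of 3 UMIs there was 0.0515, so genes near this level are not resolved. No label ties a hashtag pair to a tumour or a treatment, so differences between tumours and between treatments cannot be told apart.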
